A study of Mus musculus with 3 samples.

Results

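The cells described here were proximal tubule (PT) cells that carried the transcripts of *Vcam1* or *Havcr1*, a pair of genes switched on in injured tubule epithelium. A barcode was taken as an injured PT cell when it held at least 2 UMIs (unique molecular identifiers, each counting 1 captured transcript) of *Vcam1* and *Havcr1* together, at least 2 of the 5 PT genes *Lrp2*, *Slc34a1*, *Cubn*, *Hnf4a* and *Miox*, at least 1 UMI of *Spp1*, and no more than 1 UMI over *Ptprc*, *Tyrobp*, *Pecam1*, *Slc12a1*, *C1qa* and *Cd3g*, which mark leukocytes, endothelium and the thick ascending limb. This rule found 501 cells among the 48404 barcodes that were kept, which had at least 1672 UMIs, at least 200 detected genes and no more than 50% mitochondrial UMIs. The comparison PT cells were the 18877 kept barcodes with the same PT genes and the same limit on other lineages but with no UMI of *Vcam1* or *Havcr1*. The cells were chosen by the measured UMIs of all these genes, so their levels, and every other contrast between the 2 sets of cells, are given as descriptions without a test.

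The kidneys came from 3 mice aged 6 to 8 weeks, all given folic acid (FA), a nephrotoxic dose of which injures the tubules, and all taken 14 days later. In 2 mice both alleles of *Aoah* were mutated (*Aoah*-/-, animals 2 and 3, of a line backcrossed to C57/BL6J), and 1 mouse was wild type (WT, animal 3). Each animal gave 1 library, and no mouse without FA was analysed here. *Aoah* encodes acyloxyacyl hydrolase, an enzyme that removes fatty acyl chains from bacterial lipopolysaccharide. Values below follow the order *Aoah*-/- mouse 2, *Aoah*-/- mouse 3 and WT mouse unless stated otherwise. With 1 WT library, no difference between genotypes could be tested.

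The proximal tubule reclaims most of the filtered glucose, amino acids, phosphate and protein, and meets the cost by burning fatty acids in its mitochondria. After injury, surviving PT cells lose part of this equipment and some take on a repair state marked by SOX9. Cells that stay in such a state keep VCAM1, an adhesion receptor for leukocytes, and secrete chemokines, complement and matrix proteins. HAVCR1, also called KIM-1, is a receptor for phosphatidylserine with which injured PT cells engulf dying neighbours, and SPP1 (osteopontin) is a secreted phosphoprotein of injured epithelium.

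In GENCODE annotation of build GRCm38, *Vcam1* lies at chr3:116109949-116129688 on the minus strand and *Havcr1* at chr11:46735080-46779578 on the plus strand. *Spp1* lies at chr5:104435118-104441050, *Sox9* at chr11:112782224-112787760 and *Cp* at chr3:19957054-20009145, all on the plus strand.

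The libraries held 25516, 24693 and 23072 barcodes, of which 15441, 19692 and 13271 were kept. The deposited barcodes of *Aoah*-/- mouse 3 began at 1672 UMIs and those of the other libraries at 500, so the higher floor was applied to all. Pairs of libraries shared between 171 and 176 barcode sequences, and 9 of the 501 injured PT cells (1.80%) carried a barcode that another library also held. *Aoah* itself, measured in the injured PT cells, stood at 5.41, 4.93 and 17.5 CPM, and in the comparison PT cells at 11.2, 10.3 and 23.9 CPM (CPM is UMIs per 1000000 UMIs of the set of cells). Both *Aoah*-/- libraries were below the WT library but not at 0. Where in the gene the deletion lies is not given in the sources used here, and transcripts counted from their 3′ end need not cover it. Counting intervals throughout are exact 95% intervals that cover counting error only.

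Of the markers of this state that the rule did not use, *Sox9*, a transcription factor of tubule repair, was at 207, 279 and 207 CPM in the injured PT cells and at 11.8, 11.9 and 7.33 CPM in the comparison PT cells. The counting intervals of the injured cells were 190 to 225, 261 to 298 and 188 to 227 CPM. Every library separated the 2 sets, with a mean log2 ratio of 4.37 ± 0.32 (SD over the 3 libraries, which also holds for the ± values below). *Cp*, which encodes the copper-carrying ferroxidase ceruloplasmin, was at 312, 491 and 339 CPM against 6.07, 8.46 and 4.11 CPM, a log2 ratio of 5.74 ± 0.30.

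The injured PT cells held more UMIs per cell than the comparison cells. Their median UMI count was 15914, 11314 and 17622, against 6942, 4080 and 8269.5, and a cell with more UMIs passes a UMI threshold more easily. With every cell thinned to 1672 UMIs, *Sox9* was detected in 23.2%, 30.0% and 30.8% of injured PT cells and in 1.19%, 1.66% and 0.589% of comparison cells. Unthinned, the shares were 58.5%, 59.7% and 60.6% against 4.13%, 4.31% and 2.15%. T lymphocyte barcodes (kept barcodes with a *Ptprc* UMI and at least 2 UMIs of *Cd3d*, *Cd3e* and *Cd3g*), which should lack *Sox9* and show what free RNA contributes, held a *Sox9* UMI in 0.239%, 0.724% and 0.188% of cells after thinning, at a median depth before thinning of 2927, 3231 and 3286 UMIs. The difference in *Sox9* between the sets therefore remained at equal depth in each library.

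The PT genes of the rule were fewer in injured than in comparison cells at equal depth. After thinning, 60.4%, 57.9% and 51.9% of the injured cells still showed at least 2 of the 5 PT genes, against 89.0%, 91.1% and 90.8% of the comparison cells and 14.3%, 17.9% and 11.6% of the T lymphocytes. The mean number of PT gene UMIs after thinning was 5.12, 4.18 and 4.94 in the injured cells, 10.9, 10.2 and 12.8 in the comparison cells and 1.09, 1.41 and 1.15 in the T lymphocytes. Both PT sets were chosen by these genes and the T lymphocytes were not, so the order of the sets was fixed in part by the choice of cells and is no test of PT identity. Unthinned, and at a lower median depth than the injured cells, 25.2%, 29.8% and 24.4% of T lymphocytes passed the criterion of 2 PT genes. That criterion alone therefore does not define a PT cell in these libraries. Of the 501 injured cells, 116 held just 2 of the 5 PT genes and 171 held all 5. No doublet caller was run, and the limit of 1 UMI over 6 lineage genes was the only guard against mixed barcodes.

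Injured PT cells numbered 164 and 233 in the *Aoah*-/- libraries 2 and 3, and 104 in the WT library. They made up 1.06% of kept cells (95% Clopper-Pearson interval 0.906 to 1.24), 1.18% (1.04 to 1.34) and 0.784% (0.641 to 0.949). Of the cells with PT genes, they made up 2.89% (2.47 to 3.36), 3.33% (2.92 to 3.78) and 1.41% (1.15 to 1.70). The *Aoah*-/- libraries exceeded the WT library by 1.70 percentage points (SD 0.313 between the 2 *Aoah*-/- libraries) on the second scale and by 0.339 percentage points (SD 0.0856) on the first. The intervals of *Aoah*-/- mouse 2 and the WT mouse overlapped on the first scale and did not on the second. Cells with exactly 1 *Vcam1* or *Havcr1* UMI, just outside the rule, followed the same order at 3.52%, 4.47% and 2.0% of cells with PT genes. With the rule applied to thinned counts it found 17, 42 and 9 cells, and the difference on the second scale was 0.297 percentage points, in the same direction. The genotype difference rests on 1 WT animal.

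**Figure D1:**
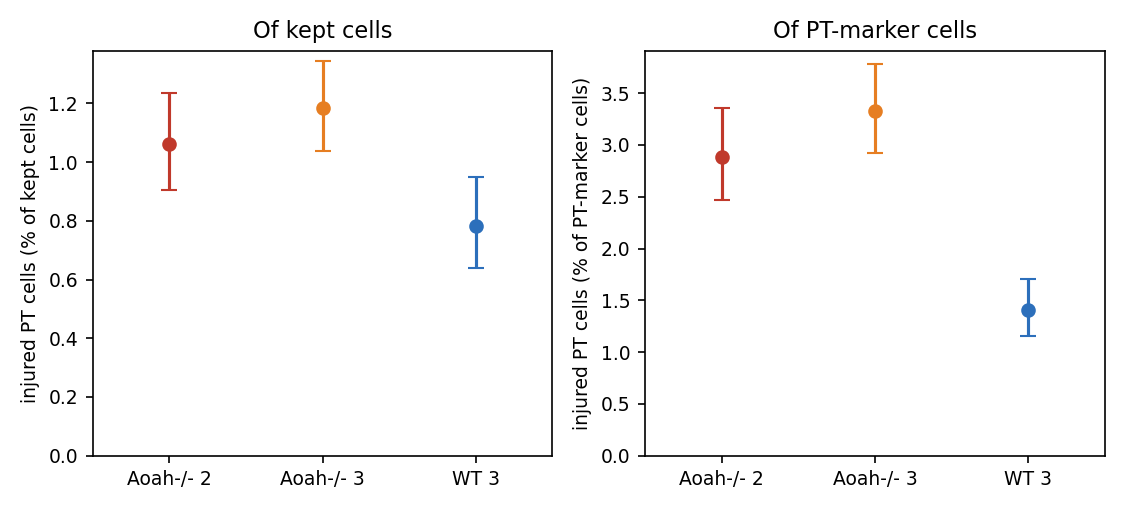
Share of injured PT cells in each library, as a percent of kept cells (left) and of cells with PT genes (right); points are shares and bars are 95% Clopper-Pearson intervals, which cover counting error only. The *Aoah*-/- libraries stood at 2.89% and 3.33% of cells with PT genes and the WT library at 1.41%.

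*Vcam1* carried most of the selection. It was the only one of the pair detected in 118, 157 and 71 injured cells, both genes were detected in 42, 67 and 29, and *Havcr1* alone was detected in 4, 9 and 4. *Vcam1* stood at 649, 674 and 595 CPM, *Havcr1* at 102, 105 and 133 CPM and *Spp1* at 12623, 12063 and 11369 CPM, against 1194, 1451 and 648 CPM of *Spp1* in comparison cells. The *Spp1* criterion excluded 7, 5 and 10 otherwise eligible barcodes, and the injured cells held a median of 84, 72 and 83.5 *Spp1* UMIs. A UMI of *Spp1* was also found in 44.1%, 49.6% and 21.5% of T lymphocytes. Exactly 2 *Vcam1* and *Havcr1* UMIs were held by 46, 66 and 32 of the injured cells, and 5 or more by 87, 117 and 49.

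Across the transcriptome, 8691 genes outside the rule averaged at least 10 CPM over the libraries in either set of cells, and 786 of them (9.04%) were at least 2-fold higher in injured PT cells in all 3 libraries, while 112 (1.29%) were at least 2-fold lower. The ratios were taken on log2(CPM + 1), and "higher" or "lower" below means this 2-fold difference in every library. The shares of 9.04% and 1.29% are the background for every list count between these 2 sets of cells. The median gene was 0.33 higher on the log2 scale. Scaling by the median of ratios moved that median to -0.06 and changed the split to 478 higher and 272 lower. The genes with the largest rise were *Ccl2*, *Ubd*, *Cp*, *Ankrd1* and *Mmp7*.

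*Ubd*, a ubiquitin-like modifier induced by inflammatory cytokines, stood at 180, 209 and 150 CPM in injured PT cells and at 0.948, 3.64 and 1.45 CPM in comparison cells. *Ankrd1*, a target of YAP, stood at 113, 148 and 182 CPM against 2.09, 1.60 and 3.35 CPM. Both genes were more than 10-fold apart in each library. *Mmp7*, a secreted matrix protease, was at 89.4, 108 and 127 CPM, but came from 14, 19 and 8 cells, and 1 cell gave 33.5%, 24.9% and 65.7% of its UMIs. *Stra6*, a cell surface receptor for retinol-binding protein, was at 78.2, 86.3 and 63.8 CPM against 1.18, 1.60 and 0.432 CPM. *Aoc1*, which degrades histamine and polyamines, was at 156, 158 and 97.8 CPM against 2.73, 4.74 and 1.21 CPM.

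**Figure D2:**
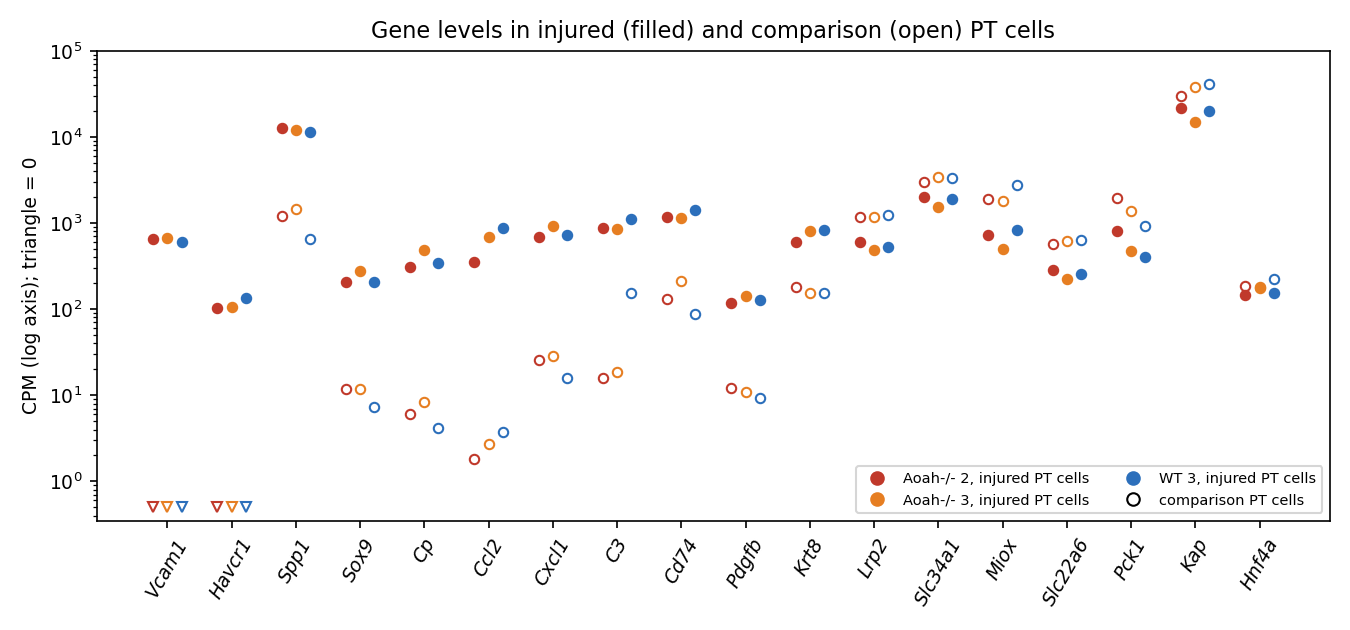
Levels of 18 genes (CPM, log axis) in injured PT cells (filled points) and comparison PT cells (open points), with 1 colour per library and a triangle for a level of 0. *Sox9*, at 207, 279 and 207 CPM in the injured cells and 11.8, 11.9 and 7.33 CPM in the comparison cells, shows the separation of the sets in every library, while *Hnf4a* points lie close together.

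Most genes of tubule injury and repair were higher. Of 27 measured, 21 were higher, none was lower and the median log2 ratio was 2.34, against 0.33 over all genes. *Lcn2*, which encodes the iron-siderophore binding protein NGAL, was at 696, 738 and 539 CPM against 35.6, 84.2 and 20.4 CPM. Its UMIs came from a minority of the cells before thinning, 18.3%, 16.3% and 19.2% of injured and 4.30%, 8.49% and 2.85% of comparison cells. After thinning the shares were 14.6%, 9.01% and 12.5% against 1.49%, 5.12% and 1.01%. In *Aoah*-/- mouse 3 the thinned intervals overlapped (5.67% to 13.4% against 4.60% to 5.69%). *Cd44*, a hyaluronan receptor, was at 83.3, 99.9 and 86.4 CPM against 6.42, 4.98 and 1.21 CPM. *Anxa2*, a calcium-dependent membrane-binding protein, was at 207, 335 and 420 CPM against 16.9, 20.4 and 18.1 CPM, and *Sox4*, a transcription factor related to SOX9, was at 376, 384 and 446 CPM against 42.6, 46.6 and 32.5 CPM. The keratin gene *Krt20* was low in both sets and separated them, at 22.4, 26.2 and 23.9 CPM against 3.08, 1.09 and 0.747 CPM. The keratin genes *Krt7* and *Krt19* did not separate the sets, with log2 ratios of -0.06 ± 0.84 and -0.17 ± 0.94.

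Most cytokine and chemokine genes, and most targets and regulators of NF-κB, the transcription factor that drives inflammatory genes, were higher. Of 15 cytokine and chemokine genes measured, 11 were higher and none lower (median log2 ratio 3.34), and of 14 NF-κB targets and regulators, 13 were higher and none lower (median 2.79). *Ccl2*, the main attractant of monocytes, stood at 353, 694 and 866 CPM in injured PT cells, with counting intervals of 332 to 376, 665 to 723 and 828 to 906 CPM, and at 1.84, 2.69 and 3.70 CPM in comparison cells. The difference was the largest among the 8691 genes measured outside the rule, 7.35 ± 0.33 on the log2 scale. A minority of the injured cells carried it: a *Ccl2* UMI was found in 20.7%, 27.9% and 24.0% of them before thinning. After thinning the shares were 17.7%, 17.2% and 16.3% in injured cells, 0.396%, 0.776% and 0.393% in comparison cells and 0.716%, 0.996% and 0.0942% in T lymphocytes. *Cxcl1*, a neutrophil attractant, was at 690, 920 and 728 CPM against 25.7, 28.7 and 16 CPM, and *Cxcl10*, an interferon-induced attractant of T lymphocytes, was at 297, 379 and 415 CPM against 13.1, 15.6 and 16 CPM. *Cxcl2*, like *Cxcl1* a neutrophil attractant, was at 375, 586 and 599 CPM against 31.2, 32.0 and 7.19 CPM. *Csf1*, a macrophage growth factor, was at 54.8, 45.0 and 58.8 CPM against 1.78, 2.45 and 4.0 CPM.

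*Nfkbia*, which encodes the inhibitor that holds NF-κB in the cytoplasm and is itself induced by it, was at 564, 715 and 906 CPM against 95.1, 98.8 and 82.3 CPM. *Relb*, a subunit of the alternative NF-κB complex, was at 44.0, 54.3 and 68.0 CPM against 5.01, 5.29 and 3.18 CPM, and *Birc3*, an inhibitor of apoptosis, was at 69.6, 69.7 and 51.4 CPM against 6.21, 6.46 and 3.66 CPM. *Icam1*, an adhesion molecule for leukocytes, was at 73.2, 87.9 and 80.4 CPM against 10.3, 9.76 and 6.46 CPM. *Mif* and *Il1b* were not higher, and *Il1b* was at 9.38, 16.3 and 5.51 CPM against 11.5, 37.1 and 5.62 CPM.

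The promoters of 4 of these genes are shown because they hold the κB motif, the site that NF-κB binds, on either strand. Each runs 5′ to 3′ on the strand of the gene, from 250 bases before the start to 50 after it, and capitals mark the letters of a match. The sequences are from RefSeq, build GRCm38.p6, at chr5:90890995-90891294 (plus strand) for *Cxcl1*, chr5:90903649-90903948 (plus) for *Cxcl2*, chr5:92348840-92349139 (minus) for *Cxcl10* and chr12:55492598-55492897 (minus) for *Nfkbia*.
Cxcl1: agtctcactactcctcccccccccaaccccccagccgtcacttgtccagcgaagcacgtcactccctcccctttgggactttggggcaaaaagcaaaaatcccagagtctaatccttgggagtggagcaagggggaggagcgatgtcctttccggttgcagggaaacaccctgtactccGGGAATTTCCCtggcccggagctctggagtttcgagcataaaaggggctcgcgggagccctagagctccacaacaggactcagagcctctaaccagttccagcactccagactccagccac
Cxcl2: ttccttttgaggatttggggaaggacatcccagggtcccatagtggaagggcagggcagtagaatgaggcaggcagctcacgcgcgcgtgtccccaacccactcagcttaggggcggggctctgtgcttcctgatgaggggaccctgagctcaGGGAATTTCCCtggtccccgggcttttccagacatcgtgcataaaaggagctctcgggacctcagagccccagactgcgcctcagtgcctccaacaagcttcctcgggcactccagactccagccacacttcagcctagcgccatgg
Cxcl10: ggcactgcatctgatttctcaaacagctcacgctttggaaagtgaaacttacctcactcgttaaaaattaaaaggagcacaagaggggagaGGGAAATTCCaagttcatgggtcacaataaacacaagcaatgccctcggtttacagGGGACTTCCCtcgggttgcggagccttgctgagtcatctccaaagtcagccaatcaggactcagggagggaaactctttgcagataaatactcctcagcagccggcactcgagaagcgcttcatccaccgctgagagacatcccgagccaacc
Nfkbia: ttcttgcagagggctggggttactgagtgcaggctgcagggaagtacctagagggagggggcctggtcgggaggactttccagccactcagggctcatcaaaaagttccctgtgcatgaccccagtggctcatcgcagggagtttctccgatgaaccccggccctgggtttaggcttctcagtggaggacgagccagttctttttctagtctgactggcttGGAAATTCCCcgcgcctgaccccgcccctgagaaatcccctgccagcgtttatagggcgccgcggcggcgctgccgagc
In *Cxcl1* and *Cxcl2* matches on both strands overlapped, and *Cxcl10* held 2 separate ones. The motif was present in 81 of the 604 higher genes with a RefSeq promoter (13.4%), in 3 of 78 lower genes (3.85%) and in 6.06% of the 6751 measured genes matched. It was found in 6 of 10 promoters of the NF-κB list, whose genes were picked as targets and regulators of NF-κB. That share is therefore set in part by how the list was made. No match was found in the windows of *Havcr1*, *Spp1*, *Cp*, *Lcn2*, *Birc3* or *Icam1*. A match describes letters in this window and is not evidence of binding.

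Complement, antigen presentation and growth factor genes were higher as well. *C3*, the central complement protein, was at 884, 859 and 1108 CPM in injured PT cells and at 16.1, 18.4 and 155 CPM in comparison cells. The WT comparison cells stood apart, and WT T lymphocytes held a similar 165 CPM of *C3* against 19.1 and 13.3 CPM in the *Aoah*-/- T lymphocytes. Their part in the WT value was not tested. After thinning, *C3* was detected in 50.6%, 52.8% and 45.2% of injured PT cells, 2.05%, 2.98% and 3.37% of comparison cells and 1.07%, 1.63% and 1.69% of T lymphocytes. Unthinned, the injured cells stood at 76.8%, 78.1% and 78.8%. In the complement and acute phase list 7 of 12 measured genes were higher and none lower, against 9.04% and 1.29% over all genes.

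All 6 measured genes of MHC class II presentation were higher (median log2 ratio 2.54). *Cd74*, the invariant chain that guides class II molecules to the endosome, was at 1164, 1129 and 1415 CPM against 131, 212 and 87.3 CPM. T lymphocyte barcodes held 905, 903 and 347 CPM. After thinning, *Cd74* was detected in 61.6%, 65.2% and 66.3% of injured PT cells, in 15.5%, 30.1% and 9.87% of comparison cells and in 18.1%, 24.6% and 12.3% of T lymphocytes. Unthinned, those shares were 90.9%, 92.3% and 87.5%, then 38.4%, 51.8% and 29.5%, and 27.3%, 37.8% and 23%. The injured cells lay above the T lymphocyte share in each library, and by CPM the comparison cells lay below the T lymphocytes in each. Between comparison cells and T lymphocytes the thinned shares had no common order, with comparison cells higher in *Aoah*-/- mouse 3 (29.0% to 31.3% against 22.8% to 26.5%) and overlapping intervals in the other libraries, and no order is read from them. *H2-Ab1*, a class II chain, was at 573, 499 and 643 CPM against 77.9, 131 and 55.9 CPM. In class I presentation 9 of 10 genes were higher (median 2.43), including the proteasome subunit gene *Psmb8* at 132, 125 and 153 CPM against 14.9, 18.8 and 12.0 CPM. Of 13 interferon-induced genes 11 were higher (median 2.12), among them *Irf1*, a transcription factor, at 164, 162 and 169 CPM against 27.3, 25.2 and 18.4 CPM.

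Of 22 growth factor and matrix genes measured, 20 were higher and none lower (median log2 ratio 2.46). *Pdgfb*, a mitogen of pericytes and fibroblasts, was at 116, 140 and 129 CPM against 12.2, 10.9 and 9.19 CPM. *Ctgf*, a secreted matricellular protein, was at 77.9, 124 and 110 CPM against 6.79, 6.18 and 3.91 CPM, and *Edn1*, a precursor of the vasoconstrictor endothelin, was at 74.3, 101 and 79.9 CPM against 8.24, 6.56 and 8.53 CPM. The collagen IV gene *Col4a1*, of the tubular basement membrane, was at 226, 423 and 333 CPM against 59.3, 70.2 and 60.6 CPM. *Tgfb2* was higher, at 29.6, 46.9 and 44.6 CPM against 3.48, 1.88 and 2.49 CPM, and *Tgfb1* was higher at a lower level, 16.6, 17.9 and 16.5 CPM against 5.63, 5.61 and 2.16 CPM. *Areg*, an EGF receptor ligand, did not separate the sets (log2 ratio 0.36 ± 1.48).

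Immediate early genes also stood high. In the list of immediate early and heat shock genes 10 of 16 were higher and none lower, with *Atf3*, a stress-induced transcription factor, at 781, 968 and 1192 CPM against 191, 175 and 131 CPM and *Myc* at 76.1, 83.9 and 112 CPM against 9.73, 8.87 and 8.70 CPM. Of 11 genes of the p53 pathway and cell cycle arrest, 5 were higher and none lower. Beside both lists, 9.04% of all genes were higher and 1.29% lower. *Cdkn1a*, an inhibitor of cell cycle kinases, was at 88.7, 72.8 and 147 CPM against 37.3, 30.1 and 23.5 CPM.

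Genes of the mature tubule differed less than the injury genes. The rule admitted only cells that still showed PT genes, so injured cells that had lost them were left out. T lymphocytes, which show what free RNA contributes, held 999.7, 932.1 and 774.4 CPM summed over the S1 and S2 transporter list. The parts of this choice and of free RNA in the smaller differences, here and in the metabolic lists below, were not tested. Among S1 and S2 transporters, 2 of 17 measured were lower and none higher (median log2 ratio -0.55). *Slc22a8*, an organic anion transporter, was at 92.3, 84.8 and 48.2 CPM against 384, 347 and 319 CPM, and *Slc13a3*, a dicarboxylate transporter, was at 102, 64.4 and 97.8 CPM against 245, 213 and 229 CPM. *Slc5a2*, the glucose transporter SGLT2, was at 224, 158 and 155 CPM against 244, 272 and 194 CPM, and *Slc4a4*, the basolateral bicarbonate transporter, was at 1089, 1021 and 931 CPM against 1222, 1284 and 1012 CPM. The levels of the last 2 genes differed by less than 2-fold in each library. Among S3 genes 2 of 11 were higher, *Agt* (angiotensinogen) and *Slc7a12*, and none lower, although the median log2 ratio of the list was -0.69. Over all genes 9.04% were higher and 1.29% lower, and the 2 higher S3 genes are too few to set the list apart from that share.

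Gluconeogenesis had a median log2 ratio of -1.0, with 3 of 13 genes lower and none higher. Over all genes, 1.29% were lower and 9.04% higher. *Pck1*, which catalyses the committed step of gluconeogenesis, was at 806, 473 and 403 CPM against 1957, 1392 and 925 CPM, and *G6pc*, which releases glucose in the last step, was at 151, 122 and 124 CPM against 390, 378 and 375 CPM. Of 25 fatty acid oxidation genes 4 were lower and none higher (median -0.59). The 4 were the thiolase genes *Acaa2* and *Acaa1b*, the peroxisomal enzyme gene *Ehhadh* and the medium-chain acyl-CoA synthetase gene *Acsm3*, which was at 51.9, 41.6 and 82.2 CPM against 161, 195 and 223 CPM. *Cpt1a*, which carries fatty acids into mitochondria, was at 101, 73.7 and 67.5 CPM against 116, 100 and 92.5 CPM.

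Glycolytic genes had a median log2 ratio of 0.11, which turned to -0.25 with median-of-ratios scaling. In that list 1 of 14 genes was higher, near the share of 9.04% over all genes. It was *Hk2*, an inducible hexokinase, at 14.4, 29.3 and 36.3 CPM against 1.86, 2.17 and 1.23 CPM. The 13 protein genes of the mitochondrial genome had a median of -0.89, with 3 lower, against 1.29% lower over all genes. That median depended on the choice of cells and the scaling. It was -0.34 with a mitochondrial limit of 20%, -0.06 without cells holding 2 genes of another type and -1.28 with median-of-ratios scaling. Mitochondrial UMIs made up a median of 12.0%, 11% and 9.40% of a cell's UMIs against 21.7%, 22.6% and 18.8%. The antioxidant and iron list had no gene past 2-fold among 18.

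Among genes of tubule transcription factors, *Hnf4a*, which the rule used, was at 146, 176 and 155 CPM against 184, 181 and 223 CPM. Against 9.04% higher and 1.29% lower over all genes, 4 of 16 transcription factor genes were higher and none lower. They were *Pax8*, of the developing nephron, at 112, 125 and 127 CPM against 41.5, 48.4 and 62.0 CPM, *Stat3* at 116, 109 and 121 CPM against 54.4, 45.2 and 33.1 CPM, *Runx1* at 53, 47.5 and 59.7 CPM against 9.96, 7.86 and 4.11 CPM, and *Foxc1* at 13.3, 13.3 and 11 CPM against 2.88, 2.67 and 1.82 CPM. Endocytosis genes had no member past 2-fold among 10, with a median log2 ratio of 0.25 that became -0.13 with median-of-ratios scaling. *Dab2*, the adaptor of megalin, was at 285, 294 and 237 CPM against 328, 316 and 298 CPM, while the receptor gene *Lrp2* (megalin), used by the rule, was at 604, 481 and 526 CPM against 1164, 1179 and 1230 CPM.

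**Figure D3:**
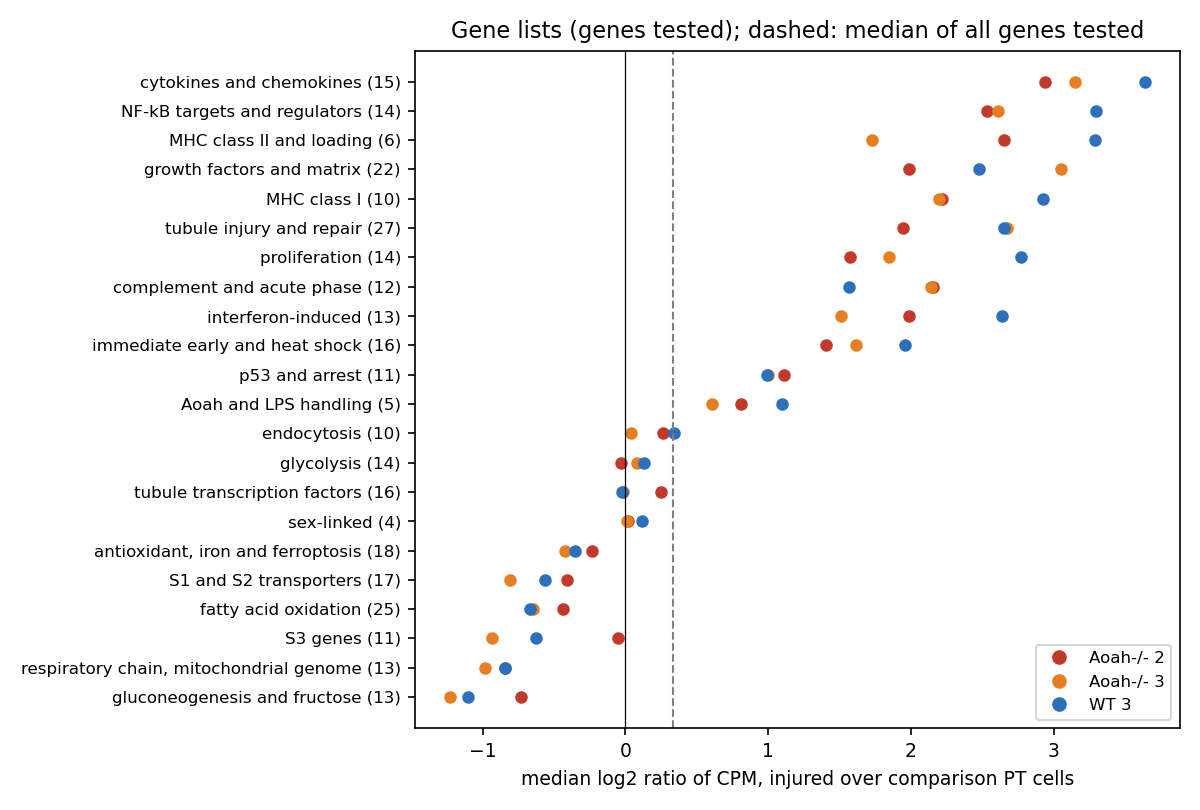
Median log2 ratio of CPM, injured over comparison PT cells, for each gene list in each of the 3 libraries (points), with the number of genes measured in brackets, a solid line at 0 and a dashed line at the median of all genes (0.33). Chemokine genes (median 3.34) and NF-κB genes (2.79) lie to the right, and gluconeogenesis (-1.0) and mitochondrially encoded genes (-0.89) to the left.

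Levels changed in steps with the number of *Vcam1* and *Havcr1* UMIs, given here for all cells with PT genes of each count, and median depth was higher in every step with a UMI than at 0. In *Aoah*-/- mouse 2, *Sox9* was at 11.8 CPM at 0 UMIs, 23.6 at 1, 68.1 at 2, 124 at 3 to 4 and 287 at 5 or more. In the WT mouse the same steps were 7.33, 26.3, 84.9, 58.3 and 313 CPM, and in *Aoah*-/- mouse 3 they were 11.9, 45.2, 156, 129 and 363 CPM. The middle steps were therefore not ordered in all libraries, while the cells with 5 or more UMIs were highest in all. *Ccl2* stood at 603, 1049 and 1577 CPM in cells with 5 or more UMIs and at 6.81, 251 and 29.7 CPM in cells with 2, so its high level came mainly from cells far inside the rule. *Miox*, a PT enzyme of inositol breakdown that the rule used, went the other way, from 1893, 1779 and 2737 CPM at 0 UMIs to 416, 194 and 294 CPM at 5 or more.

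**Figure D4:**
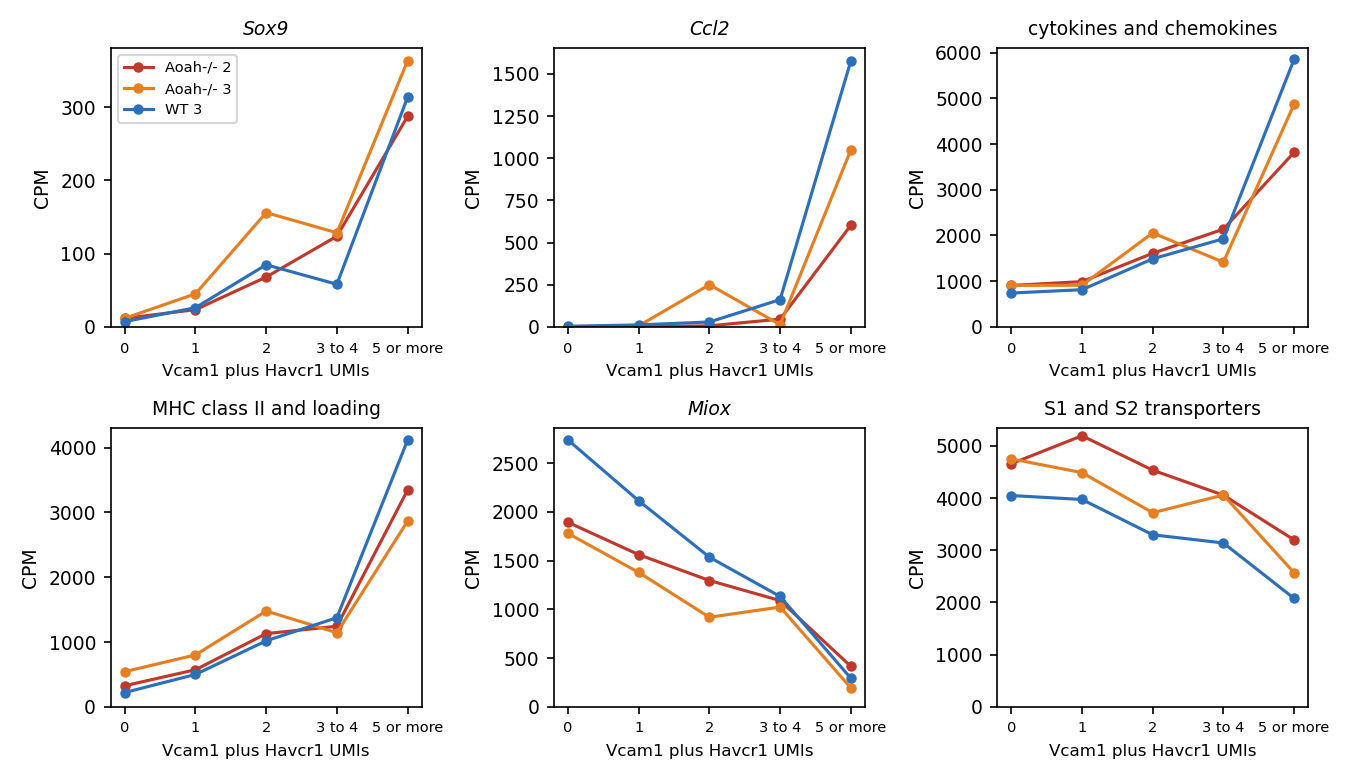
Levels (CPM, linear axes from 0) of *Sox9*, *Ccl2*, *Miox* and the summed genes of 3 lists in cells with PT genes that held 0, 1, 2, 3 to 4, or 5 or more UMIs of *Vcam1* and *Havcr1* together, with 1 line per library. *Ccl2* stood at 603, 1049 and 1577 CPM in cells with 5 or more UMIs, and *Miox* at 416, 194 and 294 CPM, its lowest in each library.

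Cells with both *Vcam1* and *Havcr1* differed from cells with *Vcam1* alone. A cell with more UMIs of the pair more readily shows both genes, and the groups were not matched for that number. Of 3405 genes at 50 CPM or more, 29 were at least 2-fold higher in cells with *Vcam1* alone and 9 in cells with both, in all 3 libraries. *Krt20* was at 67.4, 55.3 and 63.9 CPM in cells with both and at 5.72, 13.7 and 4.19 CPM in cells with *Vcam1* alone. *Cd44* was at 228, 160 and 183 CPM against 30.1, 77.1 and 41.2 CPM, and *Cxcl2* at 678, 949 and 1079 CPM against 274, 435 and 381 CPM. *Lcn2* went the other way, at 81.9, 181 and 294 CPM in cells with both and at 971, 873 and 675 CPM in cells with *Vcam1* alone. *Slc5a2* followed *Lcn2*, at 97.7, 81.4 and 66.7 CPM against 285, 205 and 197 CPM. The genes furthest apart, and those of mitosis below, were named after their values were seen. *Mgp*, *Col3a1*, *Col1a2*, *Bgn* and *Tagln*, genes of stromal and smooth muscle cells, were higher in cells with *Vcam1* alone by 4.70 to 6.15 on the log2 scale. *Col3a1* was detected in 2, 4 and 6 injured cells, and 1 cell gave 96.7%, 65.6% and 69.7% of its UMIs. Fibroblast markers summed to 83.2, 314 and 666 CPM in cells with *Vcam1* alone and to 1.32, 3.88 and 2.84 CPM in cells with both. Of the 9 genes higher in cells with both, 4 were genes of mitosis, *Birc5*, *Prc1*, *Cenpf* and *Ube2c*. The part of stromal and of cycling cells in the differences between these cells was not tested, and the cells with both had median depths of 16539.5, 13045 and 23112 UMIs against 14657, 11030 and 16744.

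The injured cells varied most, relative to their mean count, in *Kap*, an androgen-dependent PT protein, *Spp1* and a few genes carried by single cells. The variance to mean ratio of *Kap* was 101, 77.3 and 85.1, and that of *Spp1* was 29.2, 21.4 and 38.0. Haemoglobin *Hbb-bs* owed 62.0% and 90.9% of its UMIs to 1 cell in *Aoah*-/- mouse 3 and the WT mouse, so these cells were not free of erythroid RNA.

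Cycling cells were few. Cells with at least 3 of the 7 genes *Mki67*, *Top2a*, *Cdk1*, *Ccnb1*, *Ccnb2*, *Ccna2* and *Birc5* numbered 5 of 164 (3.05%, 0.997 to 6.97), 15 of 233 (6.44%, 3.65 to 10.4) and 7 of 104 (6.73%, 2.75 to 13.4). In comparison cells the share was 0.452%, 0.435% and 0.660%. After thinning, the shares were 1.83%, 3.43% and 3.85% in injured cells and 0.188%, 0.140% and 0.323% in comparison cells. These few cells held 90.4%, 84.7% and 98.9% of the UMIs that injured PT cells had of the 7 genes. In the proliferation list 9 of 14 genes were higher in injured cells and none lower, against 9.04% and 1.29% over all genes.

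Markers of other cell types were checked for mixing. At least 2 genes of 1 other cell type's list were detected in 145 of 164, 210 of 233 and 102 of 104 injured cells, and in 62.6%, 73.9% and 72.2% of the shallower comparison cells. Parietal epithelial and fibroblast markers had positive median log2 ratios, 2.91, 3.19 and 3.68 for the former and 3.01, 3.21 and 0.88 for the latter. All 4 parietal genes were higher, with *Cldn1*, a tight junction protein, at 93.4, 102 and 128 CPM against 7.99, 9.72 and 6.81 CPM and *Ncam1*, an adhesion molecule, at 25.2, 75.5 and 62.0 CPM against 3.56, 4.39 and 2.46 CPM. Their summed level was 214, 260 and 305 CPM in injured cells and 20.8, 30.5 and 21.4 CPM in comparison cells. At least 2 of the 4 were detected in 186 of the 501 cells, and after thinning in 4.88%, 3.86% and 10.6% of injured and 0.0377%, 0.155% and 0.112% of comparison cells. *Wt1*, a transcription factor of the glomerular epithelium, was at 6.13, 12.3 and 27.1 CPM. Whether some of these cells were parietal epithelium was not tested. Of 5 fibroblast markers 2 were higher. The full list of 8 summed to 58.1, 199 and 439 CPM against 6.83, 18.6 and 284 CPM, with at least 2 of them in 17 of the 501 cells. In cells with both *Vcam1* and *Havcr1* the list summed to 1.32, 3.88 and 2.84 CPM, below the comparison cells. The part of fibroblast RNA in the matrix genes was not tested. Macrophage markers, of which none was higher, summed to 74.3, 83.6 and 40.4 CPM against 97.9, 149 and 41.0 CPM. Thick ascending limb, distal, principal and intercalated lists each had 3 genes lower in the injured cells, with *Trpm6* of the distal list higher, and among the 15 genes with the largest fall were *Aqp2* and *Hsd11b2* of principal cells, *Calb1* of the distal convoluted tubule and *Jchain* of plasma cells. *Aqp2* was at 0.361, 1.54 and 1.38 CPM in injured cells and 48.6, 43.2 and 33.7 CPM in comparison cells, with 9.39, 17.6 and 23.3 CPM in T lymphocytes. The part of RNA from those cells in the genes called lower was not tested. When cells with at least 2 genes of another type's list were left out, 19, 23 and 2 injured cells remained and 201 genes were higher. With that check made on thinned counts, 130, 174 and 73 cells remained and 869 genes were higher.

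Between genotypes, injured PT cells had 39 of 8942 genes at least 2-fold higher in both *Aoah*-/- libraries than in the WT library (0.436%) and 112 at least 2-fold lower (1.25%). In the comparison PT cells the same counts were 29 (0.375%) and 47 (0.608%) of 7724 genes, and 7 and 22 genes were called in both sets of cells. The WT side is 1 library, so animal, library and genotype cannot be told apart. None of 27 tubule injury genes and none of 14 NF-κB genes passed 2-fold in both *Aoah*-/- libraries, and the median log2 ratios of those lists were -0.07 and -0.16. With so few genes called over all genes, lists of this size would hold few calls or none. Of 14 proliferation genes 5 were lower and 0 higher (median -1.02), and of 13 interferon-induced genes 2 were lower and 0 higher (median -0.25).

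Among genes of at least 50 CPM, 8 were higher in *Aoah*-/- injured PT cells. *Cxcl5*, a neutrophil attractant, was at 76.4, 87.6 and 21.1 CPM, from 16, 21 and 10 cells, with a log2 ratio of 1.90 ± 0.14 (SD between the 2 *Aoah*-/- libraries). *Cyp24a1*, which inactivates vitamin D, was at 57.0, 48.7 and 9.19 CPM, and in comparison cells at 84.7, 60.6 and 17.4 CPM, so both sets showed the lower WT value. *Fga*, a fibrinogen chain, was at 82.2, 63.8 and 26.2 CPM (log2 ratio 1.43 ± 0.25). *Klk1*, a kallikrein of the distal nephron, and *Mgp*, a matrix protein, owed 72.7% and 96.8% of their UMIs in *Aoah*-/- mouse 2 to 1 cell. *Gm8730*, *Defb1* and *S100g* completed the 8. The genotype counts moved with 1 library: 98 higher genes without *Aoah*-/- mouse 2 and 92 without *Aoah*-/- mouse 3, and 259 lower genes without mouse 3.

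Among the genes lower in *Aoah*-/- cells were *Dcn* at 1.44, 4.01 and 274 CPM and *Igfbp6* at 0.361, 3.08 and 136 CPM, genes of stromal and mesothelial cells. Their comparison cells showed the same split, with *Dcn* at 3.02, 3.64 and 216 CPM, as did T lymphocytes at 1.96, 0.103 and 142 CPM. In the WT library, at least 2 of the 8 fibroblast markers, which include *Dcn*, were detected in 4 injured cells. Those markers summed to 666 CPM in WT cells with *Vcam1* alone and to 2.84 CPM in WT cells with both genes. The parts of free RNA of the WT library and of a few cells in these values were not tested. *Gbp2*, an interferon-induced GTPase, was at 64.5, 45.6 and 179 CPM, against 3.29, 5.35 and 5.75 CPM in comparison cells, whose levels lay closer together than those of the injured cells (log2 ratio -1.70 ± 0.35 in the latter). *Ccl5*, an attractant of T lymphocytes and monocytes, was at 98.4, 47.5 and 204 CPM in injured cells. T lymphocytes held 6467, 5235 and 4007 CPM.

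*Birc5* and *Ube2c*, genes of mitosis, were also lower in the *Aoah*-/- cells, with *Birc5* at 16.2, 13.9 and 54.7 CPM and *Ube2c* at 14.1, 19.4 and 92.3 CPM. Both came from few cells, and 1 WT cell gave 43.3% of the WT *Ube2c* UMIs. *Birc5* is among the 7 genes that define the cycling cells. *Ube2c* is not, and with the 5, 15 and 7 cycling cells set aside it stood at 0, 0.978 and 1.55 CPM.

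**Figure D5:**
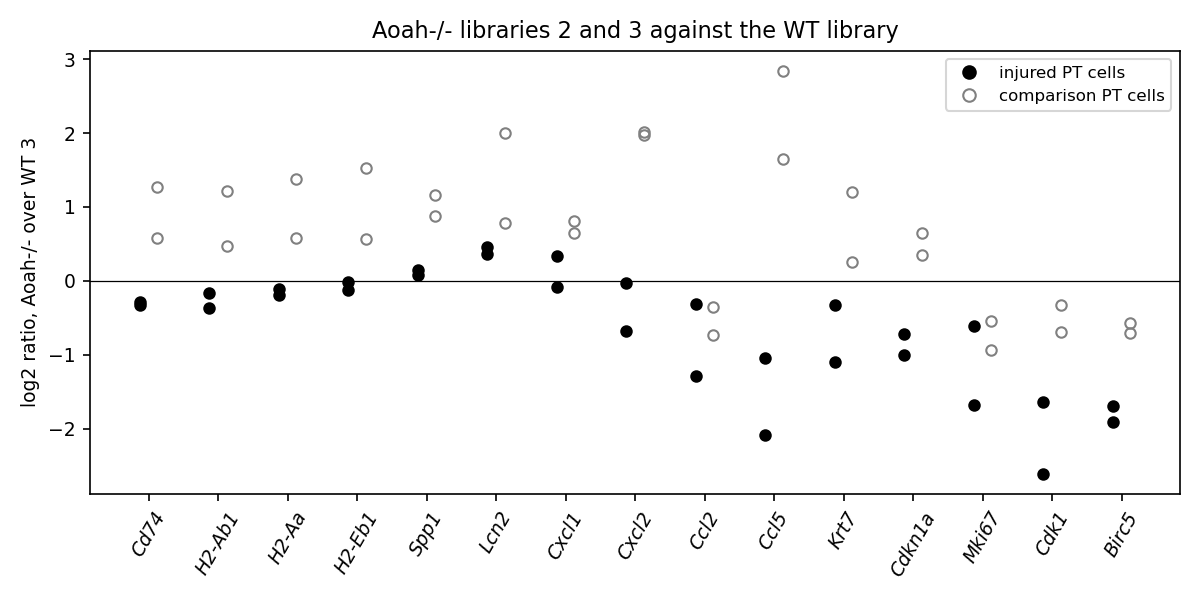
Log2 ratio of each *Aoah*-/- library over the WT library for 15 genes in injured PT cells (filled points) and comparison PT cells (open points), 2 points per gene and set; the line marks equal levels. *Cd74* averaged -0.30 in the injured cells and 0.92 in the comparison cells, and the mitotic genes *Cdk1* and *Birc5* lie below 0 in the injured cells.

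The injured cells were a small part of the cells with PT genes but held much of the RNA of some genes. They held 4.83%, 5.66% and 2.69% of all UMIs of cells with PT genes, yet 90.7%, 93.4% and 84.5% of the *Ccl2* UMIs, 67.0%, 74.2% and 64.1% of the *Cp* UMIs and 45.9%, 54.5% and 41.9% of the *Sox9* UMIs. Of *Cxcl1* they held 55.7%, 63.9% and 51.7%, and of *Spp1* 33.9%, 31.7% and 31.5%. For *C3* the shares were 68.6%, 69.3% and 14.4%, with the WT library apart. Of *Cd74* they held 30.1%, 23.4% and 29.9%, so most of its UMIs in cells with PT genes came from cells outside the rule.

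Over all cells with PT genes, *Cd74* was higher in *Aoah*-/- mice by 0.83 on the log2 scale (SD 0.39 between 2 libraries), and by 0.93 (SD 0.49) when the injured cells were left out. Within the injured cells the ratio was -0.30 ± 0.03, opposite in sign. *Sox9* was 0.92 (SD 0.29) higher over all cells with PT genes, 0.74 (SD 0.12) without the injured cells and 0.22 ± 0.30 within them. *Ccl2* was 0.03 (SD 0.82) over all and -0.81 ± 0.69 within them. The *Cd74* levels of injured cells lay between 1129 and 1415 CPM over the 3 libraries, and T lymphocytes showed a *Cd74* ratio of 1.38 ± 0.00. The part of free RNA in the ratio over all cells with PT genes was not tested.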

How the data were processed

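Droplet-based single-cell RNA-seq (10x Genomics) of 3 kidneys was analysed. The authors deposited raw UMI counts per gene and barcode for each library, and the submitters' processing notes name genome build mm10, Cell Ranger 3.1.0, STAR and Seurat 4.2.0, whereas the matrix headers name Cell Ranger 6.1.2. The counts were not normalized. The files hold 27998 genes, and the deposited totals were 167222984, 161015021 and 158551992 UMIs.

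Cells were selected by the stated thresholds, and UMIs were summed per set of cells and library and divided by the total (CPM). Ratios used a pseudocount of 1 CPM and genes with a mean of at least 10 CPM, and a gene was called when every library passed 2-fold. There is 1 WT library, and the measured genes chose the cells, so no test was run and no p-value is given. Exact Poisson and Clopper-Pearson 95% intervals cover counting error. T lymphocyte barcodes held *Ptprc* and at least 2 UMIs of CD3 genes. Cells were thinned to 1672 UMIs with a fixed seed. No doublet caller was run. The genes named were those of the rule and label, the 15 with the largest mean log2 ratio in each direction, the 10 largest in each direction between genotypes at 50 CPM or more, up to 4 of each list and others by role, and the 10 with the highest variance to mean ratio. The members and lists were chosen with earlier results of these data known. Other settings for gates, filters, scaling and libraries were tried. The counting was tested on simulated data. Python 3.11.15, numpy 2.4.6, scipy 1.17.1 and pandas 2.3.3 were used.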

Additional observations from a re-analysis of the deposited data

Results flagged for a closer look

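Of 252 genes of the lists with at least 50 UMIs in each set of cells and library, 51 had both *Aoah*-/- libraries on one side of the WT library in injured PT cells and on the other side in comparison PT cells. In 46 of them the *Aoah*-/- libraries were the lower ones in injured cells, and in 5 the higher ones. The same count was not made over all measured genes. The 51 genes and their split are therefore not read as particular to these lists. The 16 genes given here are those in which the 2 ratios were at least 1 apart on the log2 scale, a limit chosen with the data in view, and in all 16 the *Aoah*-/- libraries were lower in injured cells and higher in comparison cells. The difference between these responses was not tested, and its size is given here as the log2 ratio of *Aoah*-/- over WT in injured cells minus that in comparison cells. For antigen presentation by MHC class II it was -1.23 for *Cd74* (-0.30 against 0.92), -1.13 for *H2-Aa*, -1.11 for *H2-Ab1* and -1.12 for *H2-Eb1*. For chemokines and cytokines it was -3.81 for *Ccl5* (-1.56 against 2.25), -2.35 for *Cxcl2* (-0.35 against 1.99), -1.10 for *Cxcl16* and -1.52 for *Tnf*. For the NF-κB genes *Relb* and *Tnfaip2* it was -1.02 and -1.74. For the injury genes *Krt7* and *Lgals3* it was -1.44 and -1.31. *Bst2*, an interferon-induced membrane protein, had -1.19, *Cdkn1a* had -1.36, *Runx1* had -1.19 and *Mt2*, a metallothionein, had -1.29. In T lymphocyte barcodes the *Aoah*-/- over WT log2 ratio was 1.38 for *Cd74*, 1.46 for *H2-Ab1* and 1.85 for *Cxcl2*, and the part of free RNA in the comparison cell ratios was not tested.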

How the results depend on the processing

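Of 96 values recomputed under 19 alternatives, 59 moved by less than the spread or 1.5 times and 37 moved further. Of the 96, 72 were counts of genes, which have no sign, and 24 were differences in shares, of which 0 changed sign. Leaving out cells with at least 2 genes of another cell type in thinned counts was chosen after seeing the data. The cause of each move was not tested. The *Aoah*-/- minus WT share of kept cells (0.339 percentage points) was 0.177 with 0 other-lineage UMIs allowed, 0.0939 with the rule applied to thinned counts (17, 42 and 9 cells) and 0.105 without cells holding 2 genes of another type (19, 23 and 2 cells left). The share of cells with PT genes (1.70 points) was 3.14 with a mitochondrial limit of 20%, 1.26 from 3 UMIs, 0.297 on thinned counts, 1.02 without cells holding 2 genes of another type, and 2.26 with that check on thinned counts. The 786 higher genes were 201 without cells holding 2 genes of another type, 322 at 50 CPM or more, 385 with a pseudocount of 10 and 478 with median-of-ratios scaling. The 112 lower genes were 190 with the mitochondrial limit of 20%, 183 on thinned counts, 176 without the 10% of cells with most UMIs, 70 with the other-type check on thinned counts, 58 at 50 CPM or more, 50 with a pseudocount of 10 and 272 with median-of-ratios scaling.

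Between genotypes, the 39 higher genes were 91 with 0 other-lineage UMIs, 1020 on thinned counts, 5909 without cells holding 2 genes of another type (2 WT cells), 61 with per-cell means, 8 at 50 CPM or more, 203 without a filter and 11 with a pseudocount of 10. The 112 lower genes were 169 without the *Spp1* criterion, 514 on thinned counts, 65 without the 10% of cells with most UMIs, 1051 without cells holding 2 genes of another type, 18 at 50 CPM or more, 297 without a filter and 44 with a pseudocount of 10. Leaving out 1 library at a time gave 0.278 to 0.400 and 1.48 to 1.92 percentage points for the shares, 821 to 1108 higher and 130 to 218 lower genes (218 without *Aoah*-/- mouse 2), and between genotypes 92 higher (without *Aoah*-/- mouse 3) to 98 (without *Aoah*-/- mouse 2) and 142 to 259 lower genes (259 without *Aoah*-/- mouse 3), where fewer libraries had to pass the 2-fold limit. Of 361 list medians 7 changed sign: without cells holding 2 genes of another type proliferation was -1.07, S3 genes 0.05, endocytosis -0.01 and glycolysis -0.76, glycolysis was -0.04 at 50 CPM or more, and with median-of-ratios scaling glycolysis was -0.25 and endocytosis -0.13. No paired analysis was possible because the genotypes share only 1 animal number, which marks no common animal, and no test was run.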
